A study of Neurospora crassa with 3 samples.

Results

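The genes described here are 4 genes of vitamin B6 and thiamine synthesis in the filamentous fungus Neurospora crassa, of 9730 genes counted. They are pdx-1 (NCU06550), pdx-2 (NCU06549), nmt-1 (NCU09345) and NCU06110. They were picked by locus tag, with their levels in these libraries already known, so their differences between genotypes are given as descriptions, without a test. NCU06110 was named thi-4 when the genes were picked, but the reference gene table gives NCU06110 no symbol and gives thi-4 to another gene, NCU07849. The locus tag NCU06110 is therefore used throughout, and thi-4 stands only for NCU07849.

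Vitamin B6 in its active form, pyridoxal phosphate, is a cofactor of many enzymes of amino acid metabolism. Fungi and plants make it with a synthase of 2 kinds of subunit: PDX1 builds the pyridine ring, and PDX2 is a glutaminase that supplies it with ammonia. Thiamine is joined from a pyrimidine moiety and a thiazole moiety. Relatives of NMT1 in Saccharomyces cerevisiae (the THI5 family) make the pyrimidine and draw on pyridoxal phosphate to do so, which links the pathways of both vitamins. Thi4 of the same yeast makes the thiazole. The reference gene table gives no product names, so whether NCU07849 or NCU06110 is its counterpart was not settled here. In Neurospora crassa a riboswitch in the nmt-1 transcript binds thiamine diphosphate and sets how the transcript is spliced. Reads summed over a gene, as used here, do not tell splice forms apart.

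Poly-A RNA was sequenced with a stranded kit from cultures labelled both mycelia and germinated conidia, grown for 18 h at 32 °C with shaking in Vogel's liquid medium. The 3 genotypes had 2 libraries each. The first was labelled set-2 H3G34R, a deletion of set-2 joined to histone H3 with arginine in place of glycine at the site in its name, and both libraries came from a single strain, N6777. The second was labelled set-2 ash1(Y888F), a deletion of set-2 joined to the Y888F substitution in ASH1, with libraries from strains N6266 and N6267. The third was labelled H3G34R, with set-2 not described as deleted, with libraries from strains N5247 and N5248. SET-2 and ASH1 are both histone H3 methyltransferases. Nothing in the labels says that the libraries of strain N6777 came from separate cultures, so the spread between them may be technical, and the spread in the other genotypes includes differences between strains. Wild-type libraries belong to other series and were not analysed here, but the authors deposited a comparison of each genotype with wild type.

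Sense reads in genes numbered 7.52 to 9.83 M (mega-reads) per library. Reads of set-2 (NCU00269) were present under every label, at 299 and 269 in the libraries labelled set-2 H3G34R, 171 and 123 under the label set-2 ash1(Y888F) and 322 and 252 under the label H3G34R. These counts go against a complete deletion of the gene, and which part of it was removed is not given in the sources used here. The ash1 locus, NCU01932, named set-3 in the reference table, had 71.5 ± 0.0577 CPM in set-2 H3G34R, 90.9 ± 1.06 CPM in set-2 ash1(Y888F) and 148 ± 0.395 CPM in H3G34R (SD, n = 2 each), and read counts per gene do not check a substitution. It differed by -1.05 in set-2 H3G34R against H3G34R and by -0.71 in set-2 ash1(Y888F) against H3G34R (edgeR adjusted p = 0.000212 and 0.00131). Genotypes are therefore given below as labelled, and every direction rests on those labels. Unmapped reads were 1.31% and 1.61% in the libraries labelled set-2 H3G34R, against 3.03% to 4.23% in the other 4. Between genotypes, 8561 genes were tested with edgeR's quasi-likelihood test, and a gene passed at a Benjamini-Hochberg adjusted p under 0.05. By that rule 61.7% of genes differed between set-2 H3G34R and H3G34R, 51.8% between set-2 ash1(Y888F) and H3G34R, and 38.1% between set-2 H3G34R and set-2 ash1(Y888F). A difference in itself therefore sets no gene apart in these libraries. All 4 genes passed the filter on low counts.

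Of the 4 genes, the vitamin B6 genes separated the 3 genotypes most. pdx-1, which encodes the ring-building subunit, had 1942 and 1517 sense reads in the libraries labelled set-2 H3G34R. It had 16132 and 13668 under the label set-2 ash1(Y888F), and 9504 and 10196 under the label H3G34R. Scaled to CPM, the sense counts per mega-read of library size, these were 196 and 170.2 CPM for set-2 H3G34R, 2187 and 2029.9 CPM for set-2 ash1(Y888F), and 916 and 975 CPM for H3G34R. The 3 pairs of libraries did not overlap, with set-2 ash1(Y888F) highest, H3G34R between and set-2 H3G34R lowest. The means were 183 ± 18.2 CPM for set-2 H3G34R, 2108 ± 111 CPM for set-2 ash1(Y888F) and 946 ± 41.9 CPM for H3G34R (SD, n = 2 each). Within a genotype the higher library exceeded the lower by 1.15-fold, 1.08-fold and 1.06-fold in that order.

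In log2 terms pdx-1 was 2.23-fold higher in set-2 ash1(Y888F) than in H3G34R (1.16, SE 0.128). It was 5.16-fold lower in set-2 H3G34R than in H3G34R (-2.37, SE 0.133). Between the 2 genotypes labelled set-2 the gap was 11.5-fold, lower in set-2 H3G34R (-3.52, SE 0.140). Relative to wild type that gap was smaller, as given below. Of the 8561 genes tested, 1.19% differed by at least as much between those 2 genotypes. The shares were 10.4% for set-2 H3G34R against H3G34R and 24.2% for set-2 ash1(Y888F) against H3G34R. In bulk RNA, fewer cells with the transcript and less transcript per cell cannot be told apart.

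pdx-2, which encodes the glutaminase subunit, lies directly beside pdx-1 on chromosome IV and followed the same order. It had 337 and 251 sense reads in the libraries labelled set-2 H3G34R, 3292 and 2807 under the label set-2 ash1(Y888F), and 2135 and 2282 under the label H3G34R. As levels these were 34 and 28.2 CPM for set-2 H3G34R, 446 and 417 CPM for set-2 ash1(Y888F), and 206 and 218 CPM for H3G34R. Again no library of one genotype reached into the range of another. The mean levels were 31.1 ± 4.14 CPM for set-2 H3G34R, 432 ± 20.8 CPM for set-2 ash1(Y888F) and 212 ± 8.83 CPM for H3G34R (SD, n = 2 each).

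The pdx-2 log2 difference was -2.77 (SE 0.136, 6.81-fold lower) for set-2 H3G34R against H3G34R. It was 1.03 (SE 0.126, 2.04-fold higher) for set-2 ash1(Y888F) against H3G34R, and -3.79 (SE 0.142, 13.9-fold lower) for set-2 H3G34R against set-2 ash1(Y888F). Of all genes tested, 0.853% differed by at least as much in the last of these comparisons, 7.74% in the first and 28.4% in the second. The pair did not move by quite the same amount. There were 5.76 and 6.04 pdx-1 reads per pdx-2 read in the libraries labelled set-2 H3G34R, 4.90 and 4.87 under the label set-2 ash1(Y888F), and 4.45 and 4.47 under the label H3G34R. These ratios did not overlap between genotypes, and pdx-2 had the wider range of levels.

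**Figure D1:**
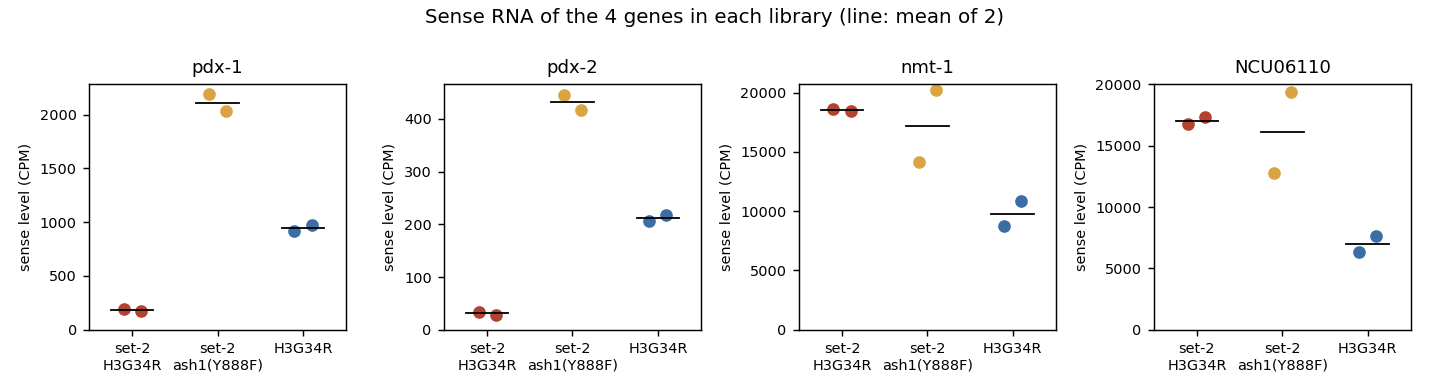
Sense level in CPM (y axis, from 0) of pdx-1, pdx-2, nmt-1 and NCU06110 in each library (points) of the genotypes labelled set-2 H3G34R, set-2 ash1(Y888F) and H3G34R (x axis), with the mean of 2 libraries as a line. For pdx-1 and pdx-2 the 3 genotypes stand apart, whereas for nmt-1 and NCU06110 only H3G34R lies below the other 2, whose libraries overlap.

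The thiamine genes had another order. nmt-1, the gene of the pyrimidine step, had 184208 and 164110 sense reads in the libraries labelled set-2 H3G34R, 104222 and 135885 under the label set-2 ash1(Y888F), and 90485 and 113088 under the label H3G34R. Its level was 18595 and 18418 CPM in set-2 H3G34R, 14129 and 20181 CPM in set-2 ash1(Y888F), and 8723 and 10818 CPM in H3G34R. Both H3G34R libraries lay below the other 4, and the set-2 ash1(Y888F) libraries lay on either side of the set-2 H3G34R ones. The means were 18506 ± 125 CPM for set-2 H3G34R, 17155 ± 4279 CPM for set-2 ash1(Y888F) and 9771 ± 1482 CPM for H3G34R (SD, n = 2 each).

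Against H3G34R, nmt-1 was 1.89-fold higher in set-2 H3G34R (log2 difference 0.92, SE 0.227) and 1.76-fold higher in set-2 ash1(Y888F) (0.81, SE 0.227). Differences of at least this size were found for 38.8% of genes in the set-2 H3G34R comparison and 36.9% in the set-2 ash1(Y888F) comparison. Between set-2 H3G34R and set-2 ash1(Y888F) the log2 difference was 0.11 (SE 0.225), less than the spread between libraries, and it became -0.127 without replicate 1 of set-2 ash1(Y888F).

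NCU06110, on chromosome VII, followed nmt-1, which lies on chromosome II. It had 165817 and 154288 sense reads in the libraries labelled set-2 H3G34R, 94047 and 130632 under the label set-2 ash1(Y888F), and 65577 and 80055 under the label H3G34R. Its level was 16739 and 17315 CPM in set-2 H3G34R, 12749.9 and 19400.4 CPM in set-2 ash1(Y888F), and 6322 and 7658 CPM in H3G34R. As with nmt-1, the H3G34R libraries were the lowest and the set-2 ash1(Y888F) libraries were spread the most, by 1.52-fold between them. The means were 17027 ± 408 CPM for set-2 H3G34R, 16075 ± 4703 CPM for set-2 ash1(Y888F) and 6990 ± 945 CPM for H3G34R (SD, n = 2 each).

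Relative to H3G34R, NCU06110 was 2.44-fold higher in set-2 H3G34R (log2 difference 1.28, SE 0.241) and 2.30-fold higher in set-2 ash1(Y888F) (1.20, SE 0.240). Differences of at least that size were found for 26.7% of genes with set-2 H3G34R and 23.1% with set-2 ash1(Y888F). Between set-2 H3G34R and set-2 ash1(Y888F) the difference was 0.08 (SE 0.237), again less than the spread between libraries, and it was -0.190 without replicate 1 of set-2 ash1(Y888F). The ratio of nmt-1 to NCU06110 reads was 1.11 and 1.06 in set-2 H3G34R, 1.11 and 1.04 in set-2 ash1(Y888F), and 1.38 and 1.41 in H3G34R. NCU06110 was thus lower relative to nmt-1 in both H3G34R libraries than in the other 4.

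Both transcripts took a large part of each library. Together nmt-1 and NCU06110 made up 3.72% and 3.69% of all sense reads in genes in the libraries labelled set-2 H3G34R. They made up 2.35% and 3.54% under the label set-2 ash1(Y888F), and 1.66% and 1.96% under the label H3G34R. The lowest shares were those of H3G34R, and of the strains labelled set-2 ash1(Y888F), N6266 had the lower one.

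Transcripts of conidiation, the formation of asexual spores, varied among the same libraries. All 6 markers checked (con-6, con-8, con-10, eas, fl and acon-3) had reads in every library, so these markers were not at 0 in the cultures. Their summed level was 619 and 1297 CPM in the libraries labelled set-2 H3G34R, 269 and 352 CPM under the label set-2 ash1(Y888F), and 172 and 237 CPM under the label H3G34R. H3G34R was lowest in this sum, as it was for nmt-1 and NCU06110. The sum also separated the genotypes labelled set-2, whose libraries overlapped for nmt-1 and NCU06110. The part of conidiation in the result was not tested. Single markers differed: con-10 had 76.1 and 182 CPM in set-2 H3G34R, 3.25 and 13.5 CPM in set-2 ash1(Y888F), and 48.6 and 44.2 CPM in H3G34R. con-6 had 89.4 and 49.8 CPM in set-2 H3G34R, 96.7 and 80.9 CPM in set-2 ash1(Y888F), and 64.1 and 88.5 CPM in H3G34R. Within set-2 H3G34R the marker sum differed between the libraries while nmt-1 was 18595 and 18418 CPM in the same 2 libraries.

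Relative to wild type, set-2 H3G34R was again lowest for the vitamin B6 genes, but set-2 ash1(Y888F) and H3G34R exchanged places. In the authors' deposited table for set-2 H3G34R, the log2 fold change over wild type was -1.22 (SE 0.129) for pdx-1 and -1.36 (SE 0.192) for pdx-2. In the authors' deposited table for set-2 ash1(Y888F) it was -0.05 (SE 0.217) for pdx-1 and -0.09 (SE 0.214) for pdx-2. In the authors' deposited table for H3G34R it was 1.27 (SE 0.113) for pdx-1 and 1.55 (SE 0.141) for pdx-2. Both vitamin B6 genes were thus below wild type in set-2 H3G34R, within 1 SE of it in set-2 ash1(Y888F) and above it in H3G34R.

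For the thiamine genes, the authors' deposited table for set-2 H3G34R gave 0.15 (SE 0.0777) for nmt-1 and -0.25 (SE 0.0868) for NCU06110. The authors' deposited table for set-2 ash1(Y888F) gave 0.13 (SE 0.307) and 0.10 (SE 0.305) for the same genes. The authors' deposited table for H3G34R gave -0.62 (SE 0.127) for nmt-1 and -1.39 (SE 0.123) for NCU06110. Here H3G34R stood farthest from wild type, and it stood below it, the opposite side from the vitamin B6 genes.

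**Figure D2:**
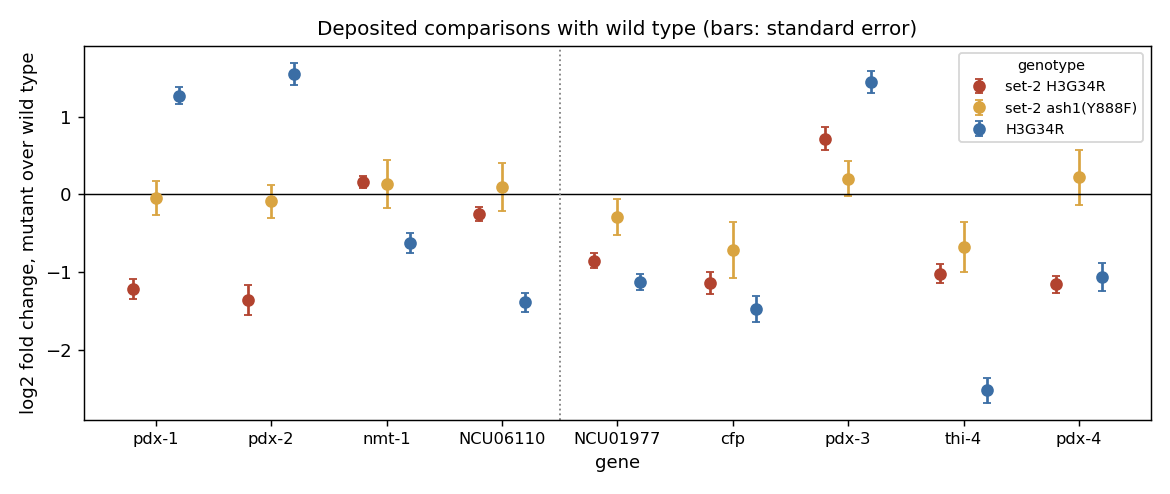
Mutant against wild type as log2 fold change, from the authors' deposited tables (y axis, bars are the standard error) for each gene (x axis), coloured by labelled genotype, with the 4 picked genes left of the dotted line and the other vitamin B6 and thiamine genes right of it. pdx-1 and pdx-2 lie at -1.22 and -1.36 in set-2 H3G34R and at 1.27 and 1.55 in H3G34R, and near 0 in set-2 ash1(Y888F).

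The wild types behind these tables were not one and the same, which bears on set-2 ash1(Y888F). A wild-type level was derived for each table by dividing the mean mutant level by the deposited fold change. The median difference over 5761 genes, which holds the differences in scaling, was subtracted from each contrast between wild types. After that the wild types behind set-2 H3G34R and H3G34R were within 0.1 log2 units of each other for 99.3% of genes, so these 2 comparisons were taken to share their controls. The wild types behind set-2 ash1(Y888F) and H3G34R were that close for 8.04% of genes, with a median absolute difference of 0.684.

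pdx-1 averaged 183 CPM in set-2 H3G34R against a derived wild type of 426 CPM, 2108 CPM in set-2 ash1(Y888F) against 2182 CPM, and 946 CPM in H3G34R against 391 CPM. pdx-2 averaged 31.1 CPM in set-2 H3G34R against a derived wild type of 79.6 CPM, 432 CPM in set-2 ash1(Y888F) against 460.0 CPM, and 212 CPM in H3G34R against 72.5 CPM. The wild type behind set-2 ash1(Y888F) was 4.96-fold higher for pdx-1 and 5.64-fold higher for pdx-2 than the wild type behind H3G34R (centred log2 differences 2.31 and 2.49). Of the 5761 genes, 7.03% differed between these wild types by at least as much as pdx-1, and 5.43% by at least as much as pdx-2.

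The sign of one comparison and the size of another therefore depend on the route. Compared directly, set-2 ash1(Y888F) was above H3G34R by 1.16 for pdx-1 and by 1.03 for pdx-2 on the log2 scale. Taken as the difference between the fold changes in the authors' deposited tables, it was below H3G34R, at -1.32 for pdx-1 and -1.64 for pdx-2. In set-2 H3G34R against set-2 ash1(Y888F), pdx-1 was at -3.52 directly and at -1.17 through the deposited tables. For pdx-2 these values were -3.79 and -1.26, so the direction stayed and the gap was smaller. For set-2 H3G34R against H3G34R, which were taken to share a wild type, the routes gave -2.37 and -2.49 for pdx-1, and -2.77 and -2.90 for pdx-2, with the direct value given before the other for each gene. A shared wild type cancels between the fold changes, so these routes are not independent of each other. The genotype set-2 ash1(Y888F) and whatever sets its wild type apart cannot be told apart in the direct comparisons that include it.

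The thiamine genes did not share this. The derived wild type of nmt-1 was 16647 CPM behind set-2 H3G34R, 15635 CPM behind set-2 ash1(Y888F) and 15046 CPM behind H3G34R. That of NCU06110 was 20291 CPM behind set-2 H3G34R, 15033 CPM behind set-2 ash1(Y888F) and 18317 CPM behind H3G34R. The centred log2 difference between the wild types behind set-2 ash1(Y888F) and H3G34R was -0.12 for nmt-1 and -0.46 for NCU06110. For set-2 ash1(Y888F) against H3G34R, the direct route gave 0.81 and the route through wild type 0.76 for nmt-1, and 1.20 and 1.49 for NCU06110, the same direction by both.

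**Figure D3:**
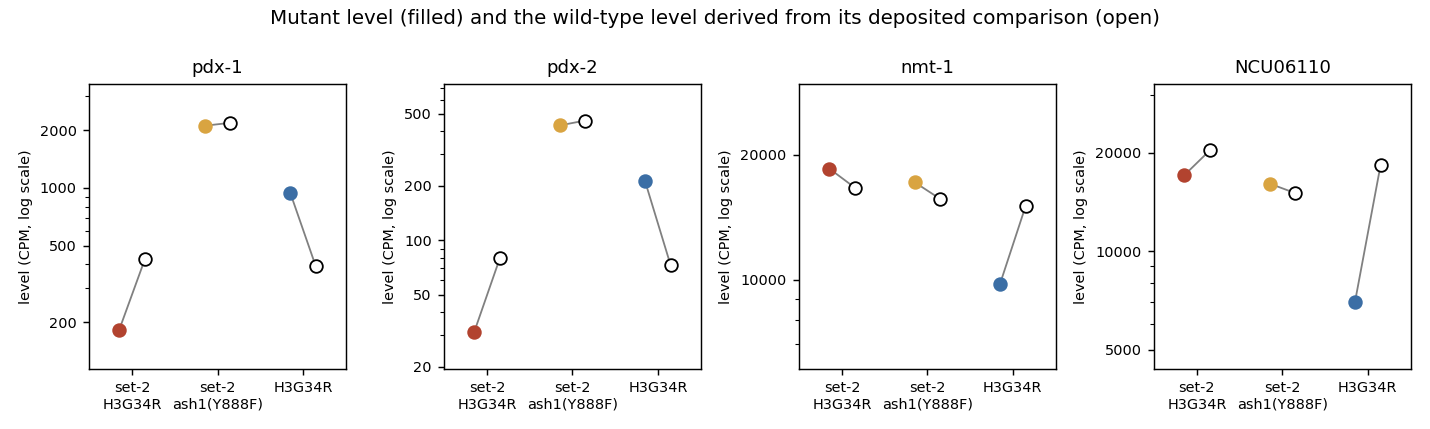
Mean mutant level (filled points) and the wild-type level derived from the deposited comparison of that mutant (open points), in CPM on a log axis, for each labelled genotype (x axis). For pdx-1 the wild types behind set-2 H3G34R and H3G34R lie at 426 and 391 CPM and the one behind set-2 ash1(Y888F) at 2182 CPM, beside its own mutant at 2108 CPM, while the wild types of nmt-1 lie between 15046 and 16647 CPM.

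Other genes of the same pathways were taken by symbol from the reference table, which gives no product names, together with NCU01977 and the thiamine-dependent enzyme pyruvate decarboxylase (cfp, NCU02193). This gave 5 genes, and with edgeR's quasi-likelihood test 2 were higher and 1 lower in set-2 H3G34R than in H3G34R, beside 61.7% of all genes that passed, 30.7% higher and 31.1% lower. Their median log2 difference was 0.42, against -0.01 over all genes tested. In set-2 ash1(Y888F) against H3G34R 3 were higher and none lower (median 0.53 against -0.00 over all genes), beside 26.3% of all genes higher and 25.5% lower. In set-2 H3G34R against set-2 ash1(Y888F) 1 was higher and 2 lower (median -0.38 against 0.02), beside 18.2% of all genes higher and 19.9% lower.

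thi-4 (NCU07849) had the order of the picked thiamine genes with respect to H3G34R. It averaged 108 ± 1.86 CPM in set-2 H3G34R, 74.7 ± 16.6 CPM in set-2 ash1(Y888F) and 34.3 ± 4.57 CPM in H3G34R (SD, n = 2 each). It rose 3.14-fold in set-2 H3G34R against H3G34R (log2 difference 1.65, SE 0.176, edgeR adjusted p = 0.000383). Against H3G34R it also rose in set-2 ash1(Y888F) (1.12, SE 0.176, edgeR adjusted p = 0.00241). Between set-2 H3G34R and set-2 ash1(Y888F) it passed at the edge (0.53, edgeR adjusted p = 0.0485) and no longer did so without any of 5 of the 6 libraries, with adjusted p of 0.0732 to 0.183. It was also lost under the 5 other alternatives, among them DESeq2, counts of both strands and no filter on low counts (adjusted p 0.0530 to 0.0750). Relative to wild type, the authors' deposited table for set-2 H3G34R gave -1.02, the one for set-2 ash1(Y888F) -0.67 and the one for H3G34R -2.52, so H3G34R was the lowest by this route too.

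Compared directly, the means of pdx-3 (NCU03068) had the order of pdx-1 and pdx-2, over a narrower range. It averaged 82.5 ± 3.52 CPM in set-2 H3G34R, 149 ± 5.40 CPM in set-2 ash1(Y888F) and 124 ± 9.97 CPM in H3G34R (SD, n = 2 each). It fell in set-2 H3G34R against H3G34R (-0.58, SE 0.110, edgeR adjusted p = 0.00376) and against set-2 ash1(Y888F) (-0.85, SE 0.111, edgeR adjusted p = 0.00262). The difference of 0.27 between set-2 ash1(Y888F) and H3G34R did not pass (edgeR adjusted p = 0.0764). Its derived wild type was again higher behind set-2 ash1(Y888F) than behind H3G34R, at 129.7 and 45.4 CPM (centred log2 difference 1.35). Unlike pdx-1 and pdx-2, it was above wild type in the authors' deposited table for set-2 H3G34R as well, at 0.72, beside 0.20 for set-2 ash1(Y888F) and 1.45 for H3G34R. By this route set-2 H3G34R against set-2 ash1(Y888F) was at 0.52, and set-2 ash1(Y888F) against H3G34R at -1.25. Both were opposite in sign to the direct differences, and set-2 H3G34R was not the lowest.

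pdx-4 (NCU08269) had 173 ± 4.82 CPM in set-2 H3G34R, 242 ± 22 CPM in set-2 ash1(Y888F) and 167 ± 39.7 CPM in H3G34R (SD, n = 2 each). It rose in set-2 ash1(Y888F) against H3G34R (0.53, edgeR adjusted p = 0.0390), a call that was lost without any of 4 of the 6 libraries (adjusted p 0.0743 to 0.203) and in a fit of only the 2 genotypes (0.0842). Its other differences were 0.05 for set-2 H3G34R against H3G34R and -0.49 for set-2 H3G34R against set-2 ash1(Y888F), and neither passed (edgeR adjusted p = 0.832 and 0.0658). The last did pass in a fit of only the 2 genotypes (edgeR adjusted p = 0.0424) and without H3G34R replicate 1 (0.0435) or replicate 2 (0.0432). The pdx symbol thus did not go with a single pattern: the means of pdx-3 had the order of pdx-1 and pdx-2, and those of pdx-4 did not.

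NCU01977 rose in set-2 ash1(Y888F), with 473 ± 32.9 CPM against 270.2 ± 16.9 CPM in H3G34R (0.81, SE 0.113, edgeR adjusted p = 0.00158, n = 2 each). At 363 ± 2.40 CPM, set-2 H3G34R lay between them. It passed against H3G34R (0.42, edgeR adjusted p = 0.0155) and against set-2 ash1(Y888F) (-0.38, edgeR adjusted p = 0.0358), but the first call was lost without any 1 of the 4 libraries compared (adjusted p 0.0563 to 0.124) and the second without any of 5 of the 6 libraries (0.0737 to 0.149) or in a fit of only the 2 genotypes (0.0719). cfp had 8673 ± 1512 CPM in set-2 H3G34R, 8607 ± 1006 CPM in set-2 ash1(Y888F) and 6156 ± 1338 CPM in H3G34R (SD, n = 2 each). It did not pass (edgeR adjusted p = 0.0898 for set-2 H3G34R against H3G34R, 0.105 for set-2 ash1(Y888F) against H3G34R and 0.977 for set-2 H3G34R against set-2 ash1(Y888F)). The first of these differences, 0.49, passed in a fit of only the 2 genotypes (edgeR adjusted p = 0.0463) and without set-2 ash1(Y888F) replicate 1 (0.0424) or replicate 2 (0.0398).

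**Figure D4:**
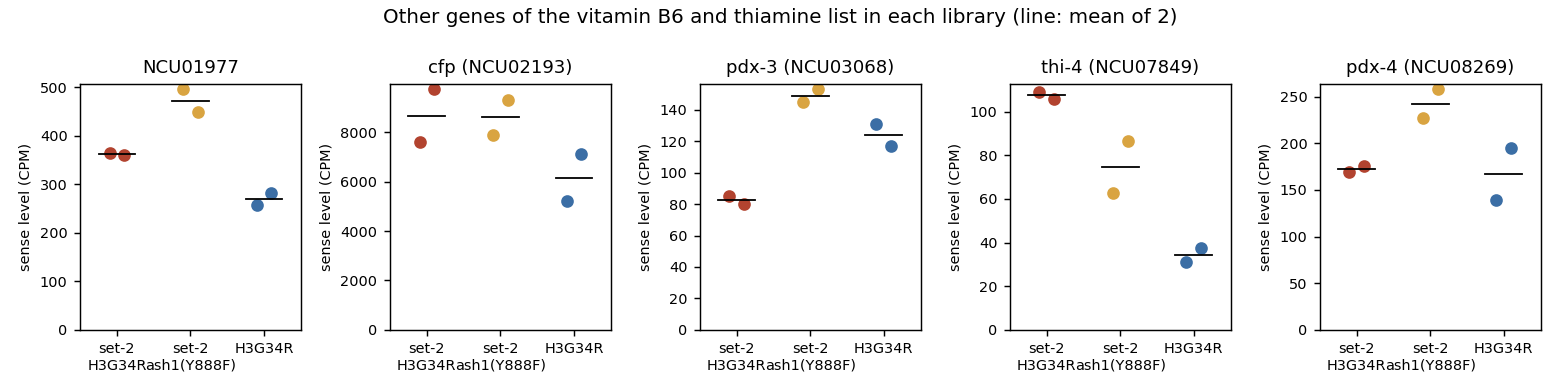
Sense level in CPM (y axis, from 0) of the other vitamin B6 and thiamine genes in each library (points) of the labelled genotypes (x axis), with the mean of 2 libraries as a line. thi-4 lies lowest in H3G34R, at a mean of 34.3 CPM, and pdx-3 lies lowest in set-2 H3G34R, at a mean of 82.5 CPM.

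The genes around pdx-1 and pdx-2 did not share their order. In set-2 H3G34R against H3G34R 3 of their 4 neighbours were called lower, as the pair was lower there, beside 31.1% of all genes tested. The calls of NCU06547 and NCU06551 were not firm, as given below. None of the neighbours had the pair's direct order of the 3 genotypes. NCU06548, next to pdx-2 on the side away from pdx-1, had 1.91 ± 0.00714 CPM in set-2 H3G34R, 2.69 ± 0.228 CPM in set-2 ash1(Y888F) and 22 ± 0.730 CPM in H3G34R (SD, n = 2 each). It fell 11.4-fold in set-2 H3G34R against H3G34R (-3.52, SE 0.210, edgeR adjusted p = 5.88e-05) and 8.15-fold in set-2 ash1(Y888F) against H3G34R (-3.03, SE 0.208, edgeR adjusted p = 0.000112). Between set-2 H3G34R and set-2 ash1(Y888F) its difference of -0.49 did not pass (edgeR adjusted p = 0.229), whereas pdx-2 differed there by -3.79. In set-2 ash1(Y888F) against H3G34R, NCU06548 was at -3.03 and pdx-2 at 1.03 when compared directly, whereas through the authors' deposited tables NCU06548 was at -5.81 and pdx-2 at -1.64, both below H3G34R.

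In the authors' deposited table NCU06548 was 3.2 (SE 0.937) above wild type in set-2 H3G34R, 1.44 (SE 0.659) above it in set-2 ash1(Y888F) and 7.25 (SE 0.768) above it in H3G34R, from few wild-type reads. The next gene outward, NCU06547, had 4 and 0 reads in the libraries labelled set-2 H3G34R, 3 and 2 under the label set-2 ash1(Y888F), and 27 and 18 under the label H3G34R. Against H3G34R it was lower under both set-2 labels (edgeR adjusted p = 0.00926 and 0.0265), on counts too low to be firm. In the authors' deposited table NCU06547 was at -1.21 (SE 1.05) in set-2 H3G34R, -0.92 (SE 0.686) in set-2 ash1(Y888F) and 1.43 (SE 0.769) in H3G34R over wild type. That is the order of pdx-1 and pdx-2 there, but the values under the set-2 labels lay within an SE of each other. Without H3G34R replicate 1 the adjusted p of the set-2 H3G34R difference was 0.0580, and without any 1 of the 4 libraries compared that of set-2 ash1(Y888F) was 0.0585 to 0.129.

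On the other side of pdx-1, NCU06551 had 21.7 ± 1.76 CPM in set-2 H3G34R, 24.7 ± 1.92 CPM in set-2 ash1(Y888F) and 32.3 ± 4.72 CPM in H3G34R (SD, n = 2 each). Its fall in set-2 H3G34R against H3G34R (-0.58, edgeR adjusted p = 0.0207) was lost without any of 3 libraries (adjusted p 0.0557 to 0.137) and with reads of both strands (0.0872). NCU06552 rose in set-2 H3G34R against H3G34R, with 19.1 ± 0.754 CPM against 11.1 ± 0.415 CPM (0.78, SE 0.161, edgeR adjusted p = 0.00538, n = 2 each). Its difference of 0.50 between set-2 H3G34R and set-2 ash1(Y888F) passed at the edge (edgeR adjusted p = 0.0488) and was lost without any 1 of the 6 libraries (adjusted p 0.0566 to 0.187).

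**Figure D5:**
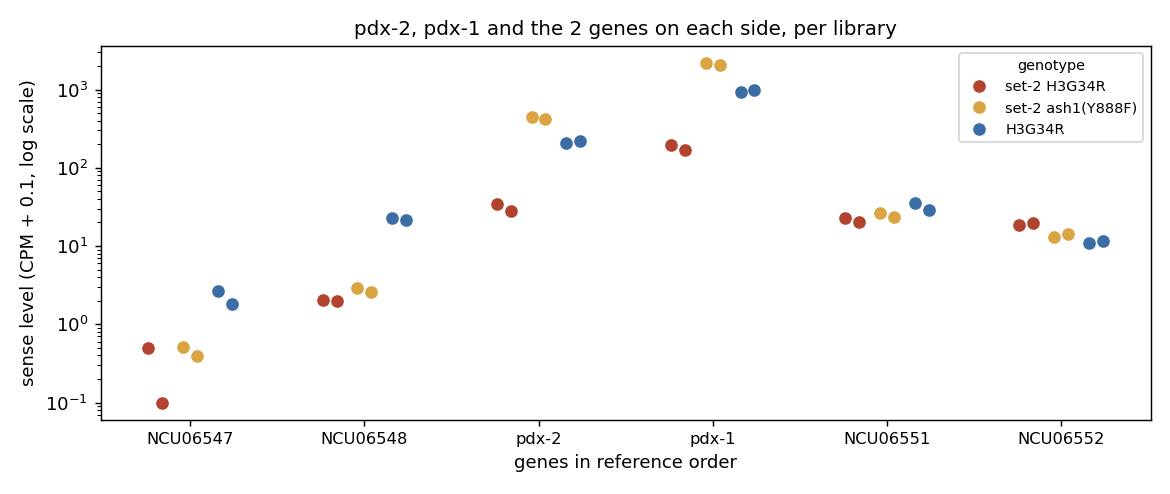
Sense level (CPM + 0.1, log axis) in each library of pdx-2, pdx-1 and the 2 genes on each side, in reference order (x axis), coloured by labelled genotype. pdx-2 and pdx-1 are lowest in set-2 H3G34R and highest in set-2 ash1(Y888F), whereas NCU06548 is at 1.91 CPM in set-2 H3G34R and 2.69 CPM in set-2 ash1(Y888F), against 22 CPM in H3G34R.

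Around NCU06110, the neighbour NCU06111 went the other way from it when compared directly. NCU06111 had 19.8 ± 1.2 CPM in set-2 H3G34R, 18.9 ± 4.33 CPM in set-2 ash1(Y888F) and 34.7 ± 4.23 CPM in H3G34R (SD, n = 2 each). It fell in set-2 H3G34R against H3G34R (-0.81, edgeR adjusted p = 0.0104) and in set-2 ash1(Y888F) against H3G34R (-0.88, edgeR adjusted p = 0.0103). Through the authors' deposited tables NCU06111 was at -0.71 in the first comparison and at -0.09 in the second. Without H3G34R replicate 2 the adjusted p was 0.0691 for set-2 ash1(Y888F), and without that library or set-2 H3G34R replicate 1 it was 0.0674 to 0.0718 for set-2 H3G34R. NCU06112, one gene further, had 21.8 ± 3.51 CPM in set-2 H3G34R, 97.9 ± 1.71 CPM in set-2 ash1(Y888F) and 39.1 ± 2.72 CPM in H3G34R (SD, n = 2 each), the order of pdx-1 and pdx-2 on another chromosome. It passed in all 3 comparisons (edgeR adjusted p = 0.00237 for set-2 H3G34R against H3G34R, 0.000524 for set-2 ash1(Y888F) against H3G34R, and 0.000386 for set-2 H3G34R against set-2 ash1(Y888F)). In the authors' deposited table it was at 1.83 (SE 0.316) in set-2 H3G34R, 0.13 (SE 0.258) in set-2 ash1(Y888F) and 2.84 (SE 0.250) in H3G34R over wild type. For NCU06112, set-2 ash1(Y888F) against H3G34R was thus 1.32 directly and -2.71 through wild type. Likewise, set-2 H3G34R against set-2 ash1(Y888F) was -2.17 directly and 1.7 through wild type, so the order of pdx-1 and pdx-2 was shared only directly. On the other side, NCU06109 had 10 to 38 sense reads per library, and its rise in set-2 ash1(Y888F) against H3G34R (2.26, edgeR adjusted p = 0.00180) turned to -0.12 with counts of both strands. Its fall in set-2 H3G34R against set-2 ash1(Y888F) (-2.12, edgeR adjusted p = 0.00446) held in all alternatives run, at -1.33 with counts of both strands. Through the authors' deposited tables, however, this difference was -0.02, from -0.48 in set-2 H3G34R and -0.45 in set-2 ash1(Y888F) over wild type. NCU06108, the next gene, passed only in set-2 H3G34R against H3G34R (-0.39, edgeR adjusted p = 0.0332), and not without any 1 of the 4 libraries compared (adjusted p 0.0894 to 0.142).

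Near nmt-1, 3 neighbours were called higher than in H3G34R under both set-2 labels when compared directly. Of all genes tested, 30.7% were higher in set-2 H3G34R and 26.3% in set-2 ash1(Y888F). NCU09343 had 19.5 ± 0.0319 CPM in set-2 H3G34R, 24.0 ± 0.960 CPM in set-2 ash1(Y888F) and 12.3 ± 2.31 CPM in H3G34R (SD, n = 2 each). NCU16593 and NCU16594, on the other side, likewise exceeded H3G34R under both set-2 labels, with log2 differences of 0.88 and 1.00 for set-2 H3G34R and 1.05 and 1.01 for set-2 ash1(Y888F). These 3 genes passed in both comparisons (edgeR adjusted p between 0.00503 and 0.0197), but 5 of the 6 calls were lost without at least 1 library, H3G34R replicate 1 in each case, with adjusted p of 0.0514 to 0.123. With reads of both strands the adjusted p of NCU16593 in set-2 H3G34R against H3G34R was 0.401. Of the 12 neighbours of all 4 genes, 11 were tested, and NCU09344 beside nmt-1 had too few reads. By edgeR's test 4 were higher and 6 lower in set-2 H3G34R than in H3G34R, beside 61.7% of all genes that passed. In set-2 ash1(Y888F) against H3G34R 5 were higher and 3 lower, beside 51.8%, and in set-2 H3G34R against set-2 ash1(Y888F) 1 was higher and 2 lower, beside 38.1%.

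Among all genes tested, pdx-1 and pdx-2 were each other's nearest match by difference in profile. Likeness was measured as the root mean square difference between log2 CPM profiles over the 6 libraries, each centred on its own mean, so that 0 is an identical profile. The value for pdx-1 and pdx-2 was 0.166, the lowest of 8560 other genes in either direction. By Pearson correlation pdx-1 still ranked 1 for pdx-2, while pdx-2 ranked 2 for pdx-1 (0.998), after NCU05272 (0.9983). For pdx-1 the next were NCU06558 (0.350), on the same chromosome with 7 genes between, and NCU05899 (0.397) on chromosome VII. NCU06558 had 29.0 ± 1.66 CPM in set-2 H3G34R, 239 ± 33.1 CPM in set-2 ash1(Y888F) and 84.2 ± 2.06 CPM in H3G34R (SD, n = 2 each). For pdx-2 they were NCU04292 (0.452) and NCU04583 (0.453).

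nmt-1 and NCU06110 had a value of 0.178 with each other, close to that of the pdx pair, but by this measure many other genes were closer to each of them. NCU06110 ranked 130 among 8560 genes by likeness to nmt-1, and nmt-1 ranked 59 by likeness to NCU06110. By Pearson correlation over the same libraries NCU06110 ranked 3 for nmt-1 (0.9942). The nearest to nmt-1 were NCU06844 (0.0670), NCU01464 (0.0755) and NCU04213 (0.0824), and the nearest to NCU06110 were NCU08356 (0.0504), NCU07844 (0.0538) and NCU04479 (0.0603). The vitamin B6 and thiamine pairs were far apart, with 1.66 between pdx-1 and nmt-1 and 1.89 between pdx-2 and NCU06110. All genes share the same 6 libraries, so these values describe the libraries and have no test.

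Antisense reads were few at all 4 genes. At pdx-1 they numbered 25 and 18 in the libraries labelled set-2 H3G34R, 240 and 210 under the label set-2 ash1(Y888F), and 67 and 85 under the label H3G34R. As a share of sense plus antisense reads these were 1.27% and 1.17% in set-2 H3G34R, 1.47% and 1.51% in set-2 ash1(Y888F), and 0.700% and 0.827% in H3G34R. The 95% exact binomial intervals of the H3G34R libraries, 0.543% to 0.888% and 0.661% to 1.02%, lay below those of set-2 ash1(Y888F), 1.29% to 1.66% and 1.32% to 1.73%. Those of set-2 H3G34R, 0.824% to 1.87% and 0.696% to 1.85%, overlapped both.

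pdx-2 had 0 antisense reads in both libraries labelled set-2 H3G34R, which allows a share of up to 0.890% and 1.20% at their depth. It had 34 and 32 antisense reads in the libraries labelled set-2 ash1(Y888F), or 1.02% and 1.13%, and 20 and 9 under the label H3G34R, or 0.928% and 0.393%. The shares under the label set-2 ash1(Y888F) lay above the first of these limits and below the second. The 95% interval of H3G34R replicate 2, 0.180% to 0.744%, lay below that of set-2 ash1(Y888F) replicate 2, 0.772% to 1.59%, while that of H3G34R replicate 1, 0.568% to 1.43%, overlapped both set-2 ash1(Y888F) libraries. The share over whole libraries was 3.49% and 3.46% in set-2 H3G34R, 3.68% and 3.78% in set-2 ash1(Y888F), and 3.08% and 3.15% in H3G34R. These were above the shares at all 4 genes.

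At the thiamine genes the antisense share was highest in set-2 ash1(Y888F), as it was over whole libraries. For nmt-1 it was 0.119% and 0.118% in set-2 H3G34R, 0.342% and 0.300% in set-2 ash1(Y888F), and 0.146% and 0.201% in H3G34R. For NCU06110 it was 0.221% and 0.233% in set-2 H3G34R, 0.560% and 0.556% in set-2 ash1(Y888F), and 0.353% and 0.406% in H3G34R. The set-2 ash1(Y888F) libraries stood above the other 4 for both genes, and the intervals cover counting error only. Their observed shares also stood above the other 4 for pdx-1, pdx-2, cfp, pdx-3 and NCU01977, but not for thi-4 and pdx-4, so this is not particular to the thiamine genes. The share of all genes with this order was not worked out.

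Part of the pdx-1 reads also lies under its neighbour. The spans of pdx-1 and NCU06551 overlap in the reference, and reads that fall in both genes drop out of the column for both strands. At pdx-1 these dropped reads numbered 73 and 57 in the libraries labelled set-2 H3G34R, 700 and 614 under the label set-2 ash1(Y888F), and 388 and 440 under the label H3G34R, and the same numbers dropped out at NCU06551. NCU06110 and NCU06111 overlap likewise, with 69 and 67 such reads in set-2 H3G34R, 20 and 20 in set-2 ash1(Y888F), and 44 and 46 in H3G34R. They are few beside the sense reads of pdx-1 and NCU06110, but not beside those of NCU06551, which had 227 and 182 sense reads in set-2 H3G34R, 192 and 157 in set-2 ash1(Y888F) with 765 and 686 antisense reads, and 370 and 303 sense reads in H3G34R. With counts of both strands the log2 differences of all 4 genes stayed within the spread between libraries of those from sense counts.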

How the data were processed

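The authors deposited raw read counts per gene for each library, in 3 columns (both strands and each strand). Per the submitters' processing notes the aligner was STAR 2.6.0. The genome build is not given in the sources used here. The strand column with more reads was taken as sense. Reads assigned to no gene were 15.0% to 22.9% of a library and were left out. The authors also deposited a table comparing each genotype with wild type, for which the submitters' processing notes name DESeq2 1.18.1. These tables have no header line. Their values show what each column is: the authors' mean normalised signal, log2 fold change, standard error, Wald score, p-value and adjusted p-value. The strand the authors tested is not stated.

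Sense counts were fitted with edgeR 4.0.16 (glmQLFit and glmQLFTest, TMM, filterByExpr by genotype, two-sided) with all 6 libraries in 1 fit, which pools the spread over the genotypes. CPM use the TMM-scaled library size, and likeness used log2 CPM with a prior count of 2. The fit was tested on simulated data. Alternatives were DESeq2 1.42.0, its size factors, no filter, counts of both strands, only the 2 genotypes compared, and leaving out each library. Software was R 4.3.3 and Python 3.11.15. Derived wild-type levels used genes with a deposited mean of at least 100 for centring.

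The 4 genes and the lists were chosen with earlier results of these data known. Named were these genes, list genes that passed in any comparison, the 2 nearest genes on each side, the 3 most alike genes, the targeted genes, and cfp, the list gene that passed in no comparison of the fit to all libraries. The list rests on symbols, since the reference table (assembly NC12, matching 9729 of 9730 genes) gives no product names. Each library counts as 1 replicate, so p-values reflect the spread between libraries, which may be technical. Intervals are 95% exact (Clopper-Pearson), the limit for a count of 0 is 3 counts, and both cover counting error only.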

Additional observations from a re-analysis of the deposited data

Results flagged for a closer look

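The genotypes labelled set-2 H3G34R and H3G34R were taken to share a wild type in the authors' deposited tables. Of the 4 genes, 3 lay on opposite sides of it, with both libraries of each genotype on the same side. The share of all genes that did so was not worked out, and 61.7% of all genes differed between these genotypes. The single-library values below rest on the same derived wild type and are not independent of the deposited ones. pdx-1 was at -1.22 in set-2 H3G34R and at 1.27 in H3G34R on the log2 scale in the authors' deposited tables, with single libraries at -1.12 and -1.32 in set-2 H3G34R and at 1.23 and 1.32 in H3G34R. pdx-2 was at -1.36 in set-2 H3G34R and at 1.55 in H3G34R by the authors' deposited tables, with single libraries at -1.23 and -1.5 in set-2 H3G34R and at 1.5 and 1.59 in H3G34R. nmt-1 was at 0.15 (SE 0.0777) in set-2 H3G34R, not firmly above wild type, and at -0.62 in H3G34R by the authors' deposited tables. Its single libraries were at 0.16 and 0.15 in set-2 H3G34R and at -0.79 and -0.48 in H3G34R. These differences were not tested, because the genes were picked with them known.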

How the results depend on the processing

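The yardstick for the 4 genes was the root of the summed variances of log2 CPM between libraries in the 2 genotypes compared. Their log2 differences stayed within it of the reported values in all 132 combinations of gene, comparison and alternative. DESeq2 was among these, and was chosen for these genes after seeing the data. With 2 libraries per genotype, leaving out 1 can hardly exceed this yardstick, so those combinations do not show how firm the values are. Leaving out 1 library at a time gave -2.49 to -2.27 for pdx-1 and -2.92 to -2.64 for pdx-2 in set-2 H3G34R against H3G34R, and 0.771 to 1.08 for nmt-1 and 1.15 to 1.43 for NCU06110. In set-2 H3G34R against set-2 ash1(Y888F) the same ranges crossed 0 for nmt-1 (-0.127 to 0.388) and NCU06110 (-0.190 to 0.416). With 1 library left out, the number of genes that differed ranged from 3803 to 5879 in set-2 H3G34R against H3G34R (5286 with all), 2754 to 4565 in set-2 ash1(Y888F) against H3G34R (4435 with all) and 1388 to 3766 in set-2 H3G34R against set-2 ash1(Y888F) (3264 with all). It was 2754 without H3G34R replicate 1, and 1551 and 1388 without set-2 H3G34R replicate 1 and replicate 2. In the last comparison 1 to 3 list genes passed, with 1 left without replicate 1 of set-2 ash1(Y888F) or either set-2 H3G34R library. The cfp (NCU02193) difference in set-2 H3G34R against set-2 ash1(Y888F), which never passed, was -0.00306 with DESeq2 and with its size factors, -0.00913 with counts of both strands, and -0.179 to 0.162 with 1 library left out. The pdx-4 (NCU08269) difference in set-2 H3G34R against H3G34R, which also never passed, was -0.181 to 0.309 with 1 library left out. NCU06109 in set-2 ash1(Y888F) against H3G34R was -0.122 with counts of both strands, which hold its antisense reads. The alternatives for neighbours and the derivation of wild types from deposited means, with differences of 2.31 for pdx-1 and 2.49 for pdx-2, were also chosen after seeing the data. By Pearson correlation in place of the root mean square difference, 1 of the 3 most alike genes was shared for pdx-1, pdx-2 and nmt-1 each, and 2 for NCU06110. No paired analysis was possible because the libraries of different genotypes share no strain or replicate number in the labels. With 2 libraries per genotype, the causes of these changes were not tested.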
